A study of Sus scrofa with 2 samples.

Results

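The miR-15 family of the pig was followed in 2 skeletal muscles. The glycolytic muscle was the *longissimus dorsi* (LDM), which runs along the back, and the oxidative muscle was the *psoas major* (PMM) of the loin. The animals were 3 female Landrace pigs aged 210 days, and the samples came from the middle section of each muscle. Per the study's methods RNA of the pigs was mixed in equal amounts within a muscle, and each muscle gave 1 small RNA library, so the spread between pigs was not measured and no difference below has a replicate check. The members were every pig miRNA entry numbered miR-15a, miR-15b, miR-16, miR-195, miR-497, miR-424 or miR-503, with all arms and copies, which gave 7 of the 668 entries in the table (281 of them named after pig miRNAs). They were ssc-miR-16-1-5p, ssc-miR-195-5p, ssc-mir-15b-5p and ssc-miR-497-5p, and the opposite arms ssc-miR-16-1-3p, ssc-mir-15b-3p and ssc-miR-497-3p. No entry was named miR-15a, miR-424 or miR-503.

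A miRNA is cut from a hairpin whose 5′ and 3′ sides (the 5p and 3p arms) form a duplex, and usually only 1 of the arms is kept in quantity to guide the silencing complex to messenger RNAs. Pairing to the target runs mainly through positions 2 to 8 of the guide, the seed. Members of the miR-15 family share a seed, and they are known as brakes on cell division and survival, with cyclin D1, cyclin E1, the checkpoint kinase CHEK1 and the anti-apoptotic protein BCL2 among their targets. In the mouse miR-195 has been tied to the arrest of heart muscle cell division after birth, and the miR-195 and miR-497 pair to the resting state of muscle stem cells.

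The deposited consensus sequences of the 4 abundant 5p entries are shown because the grouping rests on them. They are written 5′ to 3′ with T for U, and the capitals mark positions 2 to 8.
ssc-miR-16-1-5p: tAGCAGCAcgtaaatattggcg
ssc-miR-195-5p: tAGCAGCAcagaaatattggca
ssc-mir-15b-5p: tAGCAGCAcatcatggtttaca
ssc-miR-497-5p: cAGCAGCAcactgtggtttgt

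All 4 carried AGCAGCA at positions 2 to 8, and they were the only entries of the 668 to do so (0.599%), so that no entry under the authors' PN or PC names joined the group. Outside the seed they varied. miR-16 and miR-195 were identical at 19 of 22 positions and differed by G10A, T11G and G22A (miR-16 first, positions counted from 1 at the 5′ end), with the 10-base run AAATATTGGC in common after the seed. miR-15b and miR-497 were identical at 15 of 21 positions and shared the run TGGTTT. miR-195 and miR-15b were identical at 15 of 22, the first 10 included, while miR-16 and miR-497 matched at only 11 of 21. miR-497 was the member that opened with C instead of T (T1C against miR-16). The closest pair in sequence, miR-16 and miR-195, was therefore not a pair of neighbours in the genome, as given next.

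In the RefSeq gene table of assembly Sscrofa11.1, which is not the authors' build, MIR15B and MIR16-1 are neighbours within SMC4, a gene for a subunit of the condensin complex that compacts chromosomes. MIR195 and MIR497 are neighbours within the long non-coding RNA gene LOC102161115. MIR15A lies beside MIR16-2, outside any gene of that table, and MIR424 and MIR503 had no match in it. RefSeq gives both names, miR-16-1 and miR-16-2, as synonyms of either miR-16 locus. The 5p arm of miR-16 is known to be the same from both loci, so reads listed as miR-16-1-5p cannot be assigned to the miR-15b cluster alone.

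The levels of the members spanned more than 3 orders of magnitude, and the abundant ones did not move together between the muscles. Values are reads normalised by the authors, of which LDM held 8750049 and PMM 8556672 in all. In LDM a read was worth 1.15 units and in PMM 1 unit, and the fewest reads listed for any entry were 3. Intervals cover counting error at the 95% level only, since each muscle gave 1 library. No molecular identifiers are described, so duplicate reads were counted as reads.

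ssc-miR-16-1-5p, the most abundant member, had 8347 normalised reads in LDM (7254 reads) and 6574 in PMM. It ranked 38 of all entries in LDM and 48 in PMM, and it was 1.27-fold higher in LDM (1.23 to 1.31). As deposited it was the only one of the 7 members with the higher value in the glycolytic muscle, where miR-195 joined it under 3 of the 4 rescalings tried. A lean toward PMM was not particular to the members, since the median ratio over the more abundant entries also favoured PMM as deposited (given below). ssc-mir-15b-5p, which is encoded beside a copy of miR-16, went the opposite way to miR-16. It had 496 normalised reads in LDM and 828 in PMM and was 1.67-fold higher in PMM (1.48 to 1.88), moving from rank 108 to rank 96.

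ssc-miR-195-5p, the closest member to miR-16 in sequence, had 1638 normalised reads in LDM (rank 70) and 1760 in PMM (rank 72). As deposited it was 1.07-fold higher in PMM (1.002 to 1.15), an order that turned around when the libraries were rescaled by the median ratio, by a trimmed mean of log ratios or by the total without the 10 highest entries. ssc-miR-497-5p, its cluster neighbour, had 124.3 normalised reads in LDM (108 reads, rank 158) and 422 in PMM (rank 115). It was 3.40-fold higher in PMM (2.74 to 4.23), the widest difference among the members whose mean over the libraries reached 10 RPM (values rescaled so that a library totals 1000000).

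The 3p arms were all rare and all had the higher value in PMM. ssc-mir-15b-3p had 18.4 normalised reads in LDM (16 reads) and 44 in PMM, a 2.39-fold difference (1.32 to 4.54). ssc-miR-497-3p had 17.3 (15 reads) and 41, a 2.38-fold difference (1.29 to 4.62). These 2 arms, from separate clusters, thus had nearly the same level in each muscle. ssc-miR-16-1-3p was listed at 0 in LDM, which stands for fewer than 3 reads, and had 5 reads in PMM. Against the floor of 3 reads in the LDM library it was at least 1.45-fold higher in PMM, and the counting interval against that floor ran from 0.282 to 9.33, so that no difference was detectable at this depth.

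**Figure D1:**
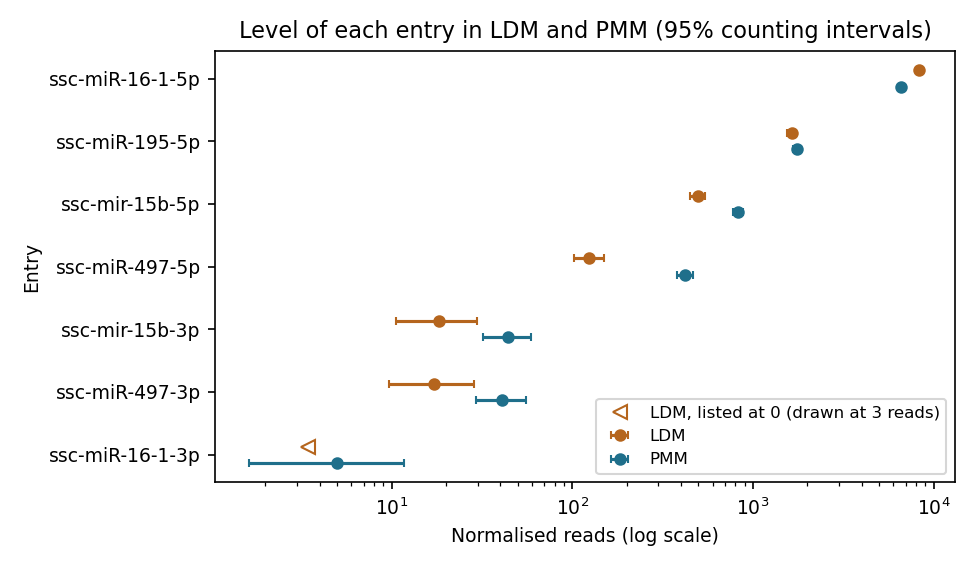
Normalised reads (log scale) of the 7 member entries in the LDM and PMM libraries, with 95% counting intervals and 1 library per muscle; the open triangle marks the entry listed at 0 in LDM, drawn at 3 reads. As deposited only ssc-miR-16-1-5p lies higher in LDM (8347 against 6574), and among the 4 members of at least 10 RPM the gap in favour of PMM is widest for ssc-miR-497-5p (124.3 against 422).

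Among the 4 members of at least 10 RPM the order of levels was miR-16, miR-195, miR-15b and miR-497 in both muscles, and the order of the ratios was the reverse of it. On the log2 scale, with 1 RPM added to both values, the ratio of PMM to LDM was −0.34 for miR-16, 0.10 for miR-195, 0.73 for miR-15b and 1.70 for miR-497. Their range of 2.04 was the second widest of the 9 seeds that at least 3 entries of this level carried. With 4 entries this is a description of these libraries, and the rank of the range was not tested.

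By the limit of 2-fold, 1 of the 4 members was higher in PMM (miR-497) and 0 were lower. Over all 185 entries of at least 10 RPM, 21.6% passed that limit in favour of PMM and 6.49% in favour of LDM, so the members' counts lie close to the background. The background depended on the scaling, with 40 entries higher and 12 lower as deposited. Centring on the median ratio gave 21 and 26, the trimmed mean 28 and 17, and scaling to the total without the 10 highest 23 and 23. The members' counts of 1 and 0 were the same under each of these scalings. The median log2 ratio of the 4 members was 0.42, against 0.35 for the 185 entries and 0.47 for the 91 entries of at least 100 RPM.

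The last of these values, 1.39-fold toward PMM as deposited, is called the median shift here. Whether it comes from the scaling or from the muscles was not tested. Relative to the median shift miR-16 lay 0.82 below and miR-195 0.37 below, while miR-15b lay 0.26 above and miR-497 1.22 above (log2 scale). The direction of miR-16, miR-15b and miR-497 was the same under every scaling tried, and only that of miR-195 depended on it. The 3 rare arms, at 3.62 RPM or less, did not pass the level filter and enter none of these counts.

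**Figure D2:**
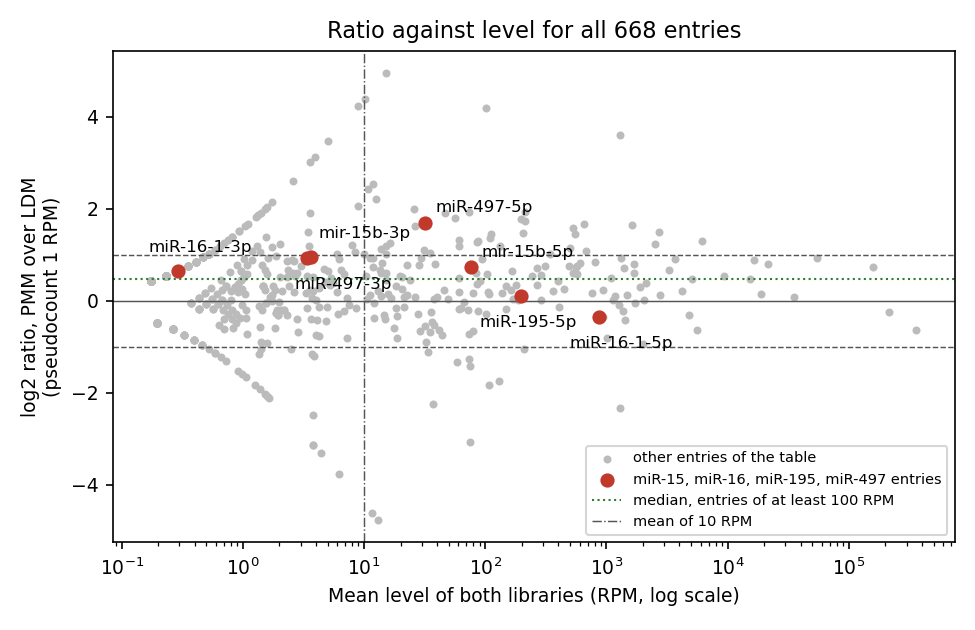
The log2 ratio of PMM to LDM (1 RPM added to both values) against the mean level in RPM (log scale) for all 668 entries in grey and the 7 members in red, with dashed lines at 2-fold, a dotted line at the median of 0.47 and a vertical line at 10 RPM. The abundant members step down from miR-497-5p (1.70) to miR-16-1-5p (−0.34) as the level rises.

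Since a seed is read alike whichever member carries it, the 4 entries were also summed. The sum was 10605 normalised reads in LDM and 9584 in PMM, or 1212 and 1120 RPM, and was 1.11-fold higher in LDM (1.08 to 1.14). It held 0.121% of the LDM reads (0.119 to 0.124, exact Clopper-Pearson interval) and 0.112% of the PMM reads (0.110 to 0.114). Of the 572 seeds in the table this one ranked 27 by its sum in LDM and 31 in PMM. On the deposited scale the direction of the sum rested on miR-16. Without miR-16 the remaining 3 entries had 2258 normalised reads in LDM against 3010 in PMM, 1.33-fold higher in PMM (1.26 to 1.41). Relative to the median shift the full sum lay 0.62 lower in PMM and the sum without miR-16 0.057 lower (log2 scale).

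The make-up of the sum does not depend on how the libraries are scaled. miR-16 held 78.7% of the group's reads in LDM (77.9 to 79.5) and 68.6% in PMM (67.7 to 69.5). miR-195 held 15.4% in LDM (14.7 to 16.2) and 18.4% in PMM (17.6 to 19.2). The share of miR-15b was 4.68% in LDM (4.25 to 5.13) and 8.64% in PMM (8.08 to 9.22), and that of miR-497 was 1.17% (0.962 to 1.41) and 4.40% (4.001 to 4.83). In PMM the seed was thus drawn more evenly from its members, with 10.1 percentage points less of it on miR-16. The shares are parts of the same sum, so a lower share of miR-16 means larger shares elsewhere, and the intervals cover counting error only.

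**Figure D3:**
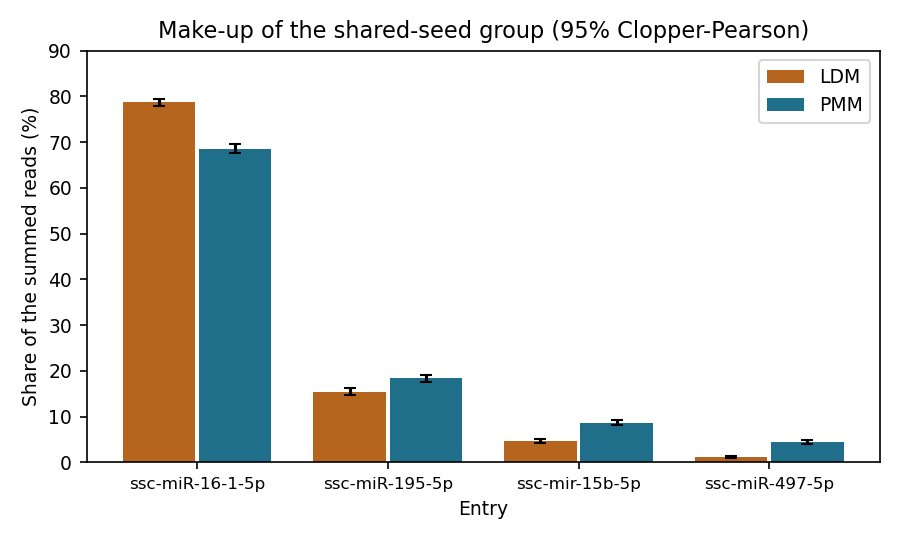
Share of each entry in the summed reads of the 4 entries with the seed AGCAGCA, in LDM and in PMM, with exact 95% Clopper-Pearson intervals and 1 library per muscle. The share of ssc-miR-16-1-5p is 78.7% in LDM and 68.6% in PMM, and the other 3 shares are larger in PMM.

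Members of a cluster are cut from a common transcript, so they were set side by side. In the miR-195 and miR-497 cluster, miR-195 outnumbered miR-497 by 13.2 to 1 in LDM and by 4.17 to 1 in PMM. The PMM to LDM ratio of miR-497 was therefore 3.16 times that of miR-195 (2.52 to 3.98, exact conditional interval). In the miR-15b cluster miR-16 outnumbered miR-15b by 16.8 to 1 in LDM and 7.94 to 1 in PMM, and the ratio of miR-15b was 2.12 times that of miR-16 (1.88 to 2.40), with the limit that miR-16 reads can come from its other locus. In either cluster the rarer member gained on the commoner one in PMM. The intervals cover counting error only, and how often other pairs of entries differ by as much was not examined.

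The cluster sums pointed in opposite directions as deposited. Most of the sum with miR-15b was miR-16-1-5p (8347 of 8862 normalised reads in LDM), whose reads can come from its other locus. Both arms of miR-15b alone were higher in PMM, at 496 against 828 (5p) and 18.4 against 44 (3p), LDM first. miR-15b with miR-16, both arms included, had 8862 normalised reads in LDM and 7451 in PMM, 1.19-fold higher in LDM (1.15 to 1.23). miR-195 with both arms of miR-497 had 1779 in LDM and 2223 in PMM, 1.25-fold higher in PMM (1.17 to 1.33). Relative to the median shift both sums were lower in PMM, by 0.72 and 0.15 on the log2 scale. Members of different clusters differed as well. The PMM to LDM ratio of miR-195 was 1.36 times that of miR-16 (1.26 to 1.48), and that of miR-497 was 2.03 times that of miR-15b (1.59 to 2.61). Entries that differ at 3 positions, such as miR-16 and miR-195, could share reads with sequencing errors, which was not tested.

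The opposite arms were read next. Their deposited sequences are shown to set them against the seed, with capitals on TGCTGCT, the reverse complement of AGCAGCA.
ssc-mir-15b-3p: cgaatcattattTGCTGCTcta
ssc-miR-16-1-3p: accaatattattgTGCTGCTt
ssc-miR-497-3p: caaaccacactgtggtgttaga

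The motif stood in the 3p arms of miR-15b and miR-16, as it did in 5 of the 668 entries (0.749%), and not in that of miR-497. AGCAGCA itself, the same motif read on the other strand, stood in 8 entries (1.20%) at any position. The longest run in which the arms were complementary was 7 bases for miR-15b and 8 for miR-16, starting at position 2 of the 5p arm in both. For miR-497 it was 9 bases at positions 12 to 20, outside the seed.

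The share of the 3p arm was largest for miR-497 and smallest for miR-16 in both muscles. For miR-15b it was 3.58% of both arms in LDM (16 of 447 reads, 2.06 to 5.75) and 5.05% in PMM (44 of 872 reads, 3.69 to 6.71). For miR-497 it was 12.2% in LDM (15 of 123 reads, 6.99 to 19.3) and 8.86% in PMM (41 of 463 reads, 6.43 to 11.8). The intervals of the muscles overlapped in both precursors, and those of miR-497 and miR-15b were apart in LDM and overlapped in PMM. The change of the 5p arm between the muscles was 0.699 times that of the 3p arm for miR-15b (0.364 to 1.28) and 1.43 times for miR-497 (0.707 to 2.75), so a difference between the arms was not detectable at this depth, where effects inside those intervals would be missed. For miR-16 the 3p arm had 5 of 6579 reads in PMM (0.0760%, 0.0247 to 0.177) and fewer than 3 beside 7254 5p reads in LDM, with 5p reads of both loci possibly in the total. No 3p entry of miR-195 was listed.

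Over the 81 pig precursors with both arms listed and at least 100 reads in each library, the median share of the rarer arm was 1.42% in LDM and 1.14% in PMM. In LDM 57 of the 81 precursors had a smaller share than miR-497 and 46 a smaller share than miR-15b, and in PMM 52 and 47 did. miR-16 lay near the bottom in PMM, where 11 precursors had a smaller share.

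**Figure D4:**
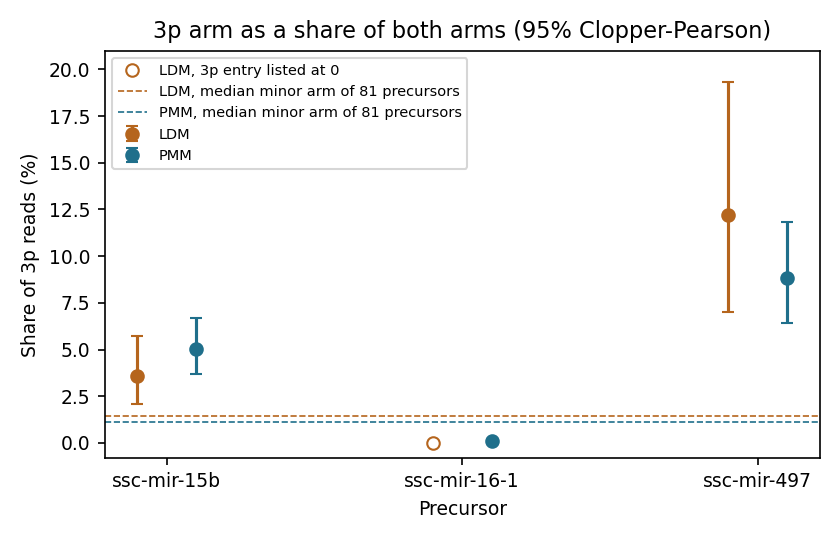
Reads of the 3p arm as a percentage of both arms for the 3 precursors with both arms listed, in LDM and PMM, with exact 95% Clopper-Pearson intervals; the open circle is the entry listed at 0, and dashed lines give the median share of the rarer arm over 81 precursors. The share is larger for miR-497 (12.2% in LDM, 8.86% in PMM) than for miR-15b (3.58% and 5.05%), with intervals that are apart in LDM and overlap in PMM, and the intervals of the muscles overlap within either precursor.

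Relatives of the family were looked up by name. miR-103 and miR-107, which lie in genes for pantothenate kinases and carry the same letters 1 base nearer to the 5′ end, are shown for that offset, with AGCAGCA in capitals.
ssc-miR-103-3p: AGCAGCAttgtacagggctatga
ssc-miR-107-3p: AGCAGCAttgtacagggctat

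The miR-103-3p entry, which joins both miR-103 precursors, had 1120 normalised reads in LDM and 1258 in PMM and was 1.12-fold higher in PMM (1.03 to 1.22). miR-107-3p had 64.4 and 54, and its ratio of 0.838 (0.566 to 1.24) did not differ from 1 beyond counting error. These sequences differed at 0 of the 21 positions they share, so the split of reads between them is uncertain. miR-646 and miR-6838 were not listed. Of 6 other miRNAs known to restrain the cell cycle (miR-34a, miR-34b, miR-34c, miR-449a, miR-26a and miR-26b) only miR-34c, which p53 induces in human and mouse cells, was listed by name. Its 5p arm had 509 normalised reads in LDM and 1402 in PMM, 2.76-fold higher in PMM (2.48 to 3.07), and its 3p arm had 5 and 24 reads. The entries of at least 100 RPM whose log2 ratio lay nearest to that of the summed seed were miR-98-5p, miR-425-5p and miR-95-3p, with log2 ratios of −0.13, −0.17 and −0.10, a likeness that rests on 2 libraries.

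Marker miRNAs of the cells in these muscles also differed between the libraries. RPM values are parts of a fixed total, so a smaller share of some entries means larger shares of others. They are not corrected for the median shift of 1.39-fold toward PMM as deposited. By deposited values miR-451 (1.18-fold higher in PMM), miR-145 (1.09-fold) and miR-122 (1.24-fold, 0.427 to 3.84) lay below that shift. The 4 skeletal muscle miRNAs (miR-1, miR-133a, miR-133b and miR-206) were all listed and summed to 685600.4 RPM in LDM and 508942 RPM in PMM. miR-1 and miR-133a made up most of that sum, and miR-206 went the other way, with 12629 RPM in LDM and 17906 RPM in PMM. By deposited values the log2 ratio of miR-206 was 0.47, the median shift itself, so relative to that shift it did not differ. Endothelial miR-126, both arms, summed to 1345 and 2734 RPM, smooth muscle miR-143 and miR-145 to 17000.3 and 29221 RPM, and the arms of fibroblast miR-199a (its 3p entry joined with miR-199b, and miR-214 not listed) to 1705 and 3972 RPM. Most of the smooth muscle sum was miR-143, and miR-145 had 1396 RPM in LDM and 1553 RPM in PMM. The leukocyte miRNAs miR-142, both arms, and miR-155 (2 of 4 listed, without miR-223 and miR-150) summed to 80.2 and 128 RPM. miR-451 of red blood cells (1 of 2 listed, without miR-144) had 853 and 1026 RPM. The liver and nerve miRNAs miR-122, miR-124a and miR-9 summed to 6.05 and 26.1 RPM. Most of that last sum was miR-9 (3.68 RPM in LDM and 21.3 RPM in PMM), and miR-122 had 7 reads in LDM and 10 in PMM. In these pooled tissues a change in the number of cells of a type and a change in RNA per cell cannot be told apart, and the part of cell make-up in the members' ratios was not tested.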

How the data were processed

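Small RNA of 10 to 40 nt was cut from a gel and read single-end at 36 bp, with 1 library of pooled RNA per muscle. The submitters' processing notes name the build Sscrofa 10.2. The mapper, miRNA release and normalisation are not given in the sources used here. For each entry the deposited table holds a consensus sequence, its length and a normalised read value for LDM and PMM, handled as a signal with no negative values, with a sum and a p-value of the authors' comparison that were not used. In LDM 423 of 424 values above 0 were whole multiples of 1.15 units and in PMM 592 of 593 were whole numbers (tolerance 0.001), from which reads were recovered. Both lowest values were 3 reads.

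Ratios were taken from the deposited values. The log2 ratio carries a pseudocount of 1 RPM (8.65 units), which understates changes of low entries. Ratios have exact conditional binomial intervals, ratios of ratios exact conditional intervals of the read table and shares exact Clopper-Pearson intervals. With 1 library per muscle no test and no p-value is given. Counts and medians used a mean of at least 10 RPM. Every member is named, and the members, lists and rules were chosen with earlier results of these data known. Scaling, pseudocount, filter, fold limit and membership were varied. The trimmed mean of log ratios was coded from its definition. Scripts were tested on simulated data. The software was scipy 1.17.1, numpy 2.4.6 and pandas 2.3.3 under Python 3.11.15, with matplotlib 3.10.9 for figures.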

Additional observations from a re-analysis of the deposited data

How the results depend on the processing

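Of 81 alternative values for 17 results, 51 stayed within the counting interval or count range of the reported value, 24 moved and 6 turned around. The summed ratio of PMM to LDM (0.904) was 0.652 after centring on the median ratio, 0.747 with the trimmed mean and 0.696 with the total without the 10 highest. It was 1.33 with miR-16 left aside, and 0.872, 0.866 and 0.874 without miR-195, miR-15b and miR-497. In the order centring, trimmed mean and total without the 10 highest, the log2 ratio of miR-195 was −0.37, −0.17 and −0.27 and the median of the members −0.051, 0.14 and 0.042. These scalings multiply every PMM value by a factor below 1, which lowers all ratios by construction. The median was 0.73 with no filter and −0.12 when 100 RPM was required, where only miR-16 and miR-195 were left. The count of members higher in PMM was 2 at a limit of 1.5-fold, 0 at 4-fold and 0 at 100 RPM. Without a pseudocount the differences within clusters were 1.08 and 1.66 on the log2 scale, against 1.07 and 1.59. With a pseudocount of 10 RPM the log2 ratio of miR-497-5p was 1.27, against 1.70. Those of miR-15b-3p and miR-497-3p were then 0.31 and 0.30, against 0.96 and 0.94, and the other members stayed within their intervals. A minimum of 10 reads per arm left out neither miR-15b nor miR-497, and reading the seed as positions 2 to 8 changed no membership, so these alternatives, counted among the 51, could not move a value. No entry joined 2 precursors of the family by name and no PN or PC entry shared the seed, so those alternatives gave no value. No paired analysis was possible because each muscle had 1 pooled library. Depth limits the 3p arms, with 16 reads or fewer in LDM.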
